A study of Rattus norvegicus with 66 samples.

Results

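The genes described here are 37 nuclear genes that encode subunits of the oxidative phosphorylation complexes of mitochondria. They were chosen by name, with no measured value in the choice, as the rows of the count tables that carry 1 of 37 listed gene symbols, out of 37777 genes in all. They comprise 21 genes of complex I, 4 of complex II, 5 of complex III, 6 of complex IV and 1 of complex V. Both rows of Ndufa1, an accessory subunit of complex I, held 0 counts in every library, so that 36 genes could be measured, 20 of them in complex I. All 36 passed the filter on low counts in every comparison, and the lowest count of any of them in a pup was 71, for Ndufs7.

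RNA of the dorsal hippocampus, with a small strip of lateral neocortex, was sequenced at PND 6 in 66 libraries of 64 Long Evans rat pups. Dams received Aroclor 1254, a mixture of polychlorinated biphenyls, or the plasticizer component bisphenol A in the chow at 5 or 0.5 mg/kg (Aro5, Aro0.5, BPA5, BPA0.5) from before mating until PND 6. Other dams received the organophosphate insecticide chlorpyrifos by subcutaneous injection at 3 or 1 mg/kg (CPF3, CPF1) during pregnancy and lactation. CONF pups had untreated chow, and CONSC pups came from dams injected with the vehicle. Male groups held 4 CONF, 5 CONSC, 4 Aro0.5, 4 BPA0.5, 4 CPF1, 6 Aro5, 7 BPA5 and 7 CPF3 pups. Female groups held 5 CONF, 5 CONSC, 5 Aro5, 4 BPA5 and 4 CPF3 pups, and low-dose females are not among the samples used here. Some pups were littermates. Each library came from its own pup, except that the CONF pups N2-2y (male) and N4-3x (female) had 2 libraries each, whose counts were summed.

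Library names are written in 2 ways, here called form A and form B, and what separates these sets of libraries is not stated. The study mentions a repeat of the female assay without saying which libraries belong to it. Among males, 9 of 10 control libraries and all 12 low-dose libraries were of form A, whereas all 20 high-dose libraries and 1 library of N2-2y were of form B. Library form and high dose therefore cannot be told apart in males beyond what the pair of libraries of N2-2y shows. Female control libraries were mixed, 5 having form A and 6 having form B. The names of the 13 treated female libraries do not show a form. Total counts per library ranged from 10644138 to 86206550. Of 6 hippocampal marker genes, 5 passed the filter in the comparisons. Markers of neighbouring tissue were present throughout, and the mean log2 CPM (CPM being counts per 1000000 counts of the library) of 6 thalamic markers ranged over groups from 5.19 to 6.21. In whole tissue, fewer cells of a type and less RNA per cell cannot be told apart.

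Oxidative phosphorylation is the final stage of aerobic ATP production. Complex I (NADH dehydrogenase) and complex II (succinate dehydrogenase) pass electrons to ubiquinone, complex III (cytochrome bc1) hands them to cytochrome c, and complex IV (cytochrome c oxidase) reduces oxygen. The proton gradient built on the way drives complex V, the ATP synthase. Most subunits come from nuclear genes, as here, while the mitochondrial genome supplies a small catalytic set, so that the complexes of neurons, which depend heavily on this ATP supply, require transcripts of both genomes. NRF1, ETS-family factors such as NRF2/GABP, YY1 and CREB are known regulators of nuclear respiratory genes.

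Because the genes are known for shared promoter motifs, the promoters were read from the RefSeq annotation of the rat build GRCr8, from 250 bases before to 50 bases after the annotated start. Windows were found for 32 of the 37 genes, with Atp5o listed there as Atp5po. No window is shown for Ndufa8, Ndufb9, Uqcrb, Cyc1 and Cox6c. The 5 windows below belong to members on which the comparisons turn: Ndufs7 and Cox8a were higher in control females than males, Uqcrc2 was lower, and Cox7c and Sdhc were among the lowest in high-dose males. Letters run from 5′ to 3′ on the strand of the gene, and capitals mark matches, on either strand, to the motifs of NRF1 (GCGC, any 2 bases, GCGC), ETS factors (CCGGAAG) or YY1 (AANATGGC).
Ndufs7: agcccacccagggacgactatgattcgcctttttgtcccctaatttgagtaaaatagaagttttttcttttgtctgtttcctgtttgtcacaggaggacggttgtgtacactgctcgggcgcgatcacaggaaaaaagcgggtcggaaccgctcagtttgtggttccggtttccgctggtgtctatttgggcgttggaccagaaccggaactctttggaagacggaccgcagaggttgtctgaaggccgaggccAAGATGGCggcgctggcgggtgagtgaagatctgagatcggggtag
Cox8a: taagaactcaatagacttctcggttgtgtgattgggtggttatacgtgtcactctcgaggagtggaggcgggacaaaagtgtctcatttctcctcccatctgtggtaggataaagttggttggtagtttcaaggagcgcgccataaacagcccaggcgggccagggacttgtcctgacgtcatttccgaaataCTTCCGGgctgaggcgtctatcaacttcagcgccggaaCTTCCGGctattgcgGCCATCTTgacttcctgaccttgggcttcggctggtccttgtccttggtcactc
Uqcrc2: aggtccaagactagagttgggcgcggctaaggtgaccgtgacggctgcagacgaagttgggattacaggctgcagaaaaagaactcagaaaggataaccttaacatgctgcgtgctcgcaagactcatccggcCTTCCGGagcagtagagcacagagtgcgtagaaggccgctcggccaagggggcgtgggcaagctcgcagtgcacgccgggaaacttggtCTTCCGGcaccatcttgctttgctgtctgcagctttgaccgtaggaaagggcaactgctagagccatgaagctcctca
Cox7c: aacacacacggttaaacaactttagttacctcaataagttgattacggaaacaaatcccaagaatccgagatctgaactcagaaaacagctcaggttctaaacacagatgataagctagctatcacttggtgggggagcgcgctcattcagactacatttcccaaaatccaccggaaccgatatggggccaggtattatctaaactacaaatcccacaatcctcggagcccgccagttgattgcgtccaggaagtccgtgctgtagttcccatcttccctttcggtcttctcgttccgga
Sdhc: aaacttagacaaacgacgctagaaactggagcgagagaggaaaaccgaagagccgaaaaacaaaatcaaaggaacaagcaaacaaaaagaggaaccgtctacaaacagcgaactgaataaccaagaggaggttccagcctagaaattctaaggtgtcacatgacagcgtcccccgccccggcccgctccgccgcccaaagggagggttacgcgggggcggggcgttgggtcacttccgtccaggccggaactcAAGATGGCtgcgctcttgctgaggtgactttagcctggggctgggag
These windows lie at chr7:10110449-10110748 on the minus strand for Ndufs7, chr1:213833574-213833873 on the minus strand for Cox8a, chr1:184598990-184599289 on the plus strand for Uqcrc2, chr2:18579121-18579420 on the minus strand for Cox7c and chr13:86097976-86098275 on the minus strand for Sdhc. Ndufs7 and Sdhc each held 1 YY1 match just after the start. Cox8a held 2 ETS matches and 1 YY1 match, Uqcrc2 held 2 ETS matches, and Cox7c held none of the 3 motifs.

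Of the 32 promoters, 16 held the YY1 letters, against 7.67% of 21851 windows of protein-coding genes. In 14 of them the match lay within 50 bases of the start, as in 4.47% of the coding genes. ETS letters were found in 11 (34.4%, against 10.74%), NRF1 letters in 5 (15.6%, against 7.46%) and the CREB site TGACGTCA in 3 (9.4%, against 2.1%). Sdha, the flavoprotein of complex II, alone held 3 NRF1 matches. The letters TATAAA occurred in 1 window (3.1%, against 13.01%). At least 1 of the NRF1, ETS and YY1 motifs stood in 23 windows (71.9%, against 22.47%). Both strands were searched, a motif could overlap another, and a match of letters describes the window without showing binding.

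Expression of the 36 genes was even across the study. The mean of their log2 CPM ranged over the 64 pups from 6.47 to 6.87, a 1.32-fold range, with a median of 6.68. Group means ran from 6.57 ± 0.04 (SD, n = 4) in female CPF3 to 6.75 ± 0.06 (SD, n = 4) in male CPF1. Neighbouring groups in this order differed by less than their SDs, which were 0.039 to 0.137. In males the means were 6.71 ± 0.11 in CONF (n = 4), 6.68 ± 0.13 in CONSC (n = 5), 6.74 ± 0.06 in Aro0.5 (n = 4) and 6.65 ± 0.14 in BPA0.5 (n = 4). The high-dose male means were 6.59 ± 0.10 in Aro5 (n = 6), 6.66 ± 0.08 in BPA5 (n = 7) and 6.63 ± 0.08 in CPF3 (n = 7). All 3 lay below both male control means and within 1 SD of the lower one. In females the means were 6.62 ± 0.13 in CONF (n = 5), 6.72 ± 0.11 in CONSC (n = 5), 6.62 ± 0.10 in Aro5 (n = 5) and 6.59 ± 0.09 in BPA5 (n = 4). The 36 genes together took 0.385% to 0.451% of all counts in the 13 groups, and the 13 mitochondrially encoded genes took 6.73% to 9.25%.

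**Figure D1:**
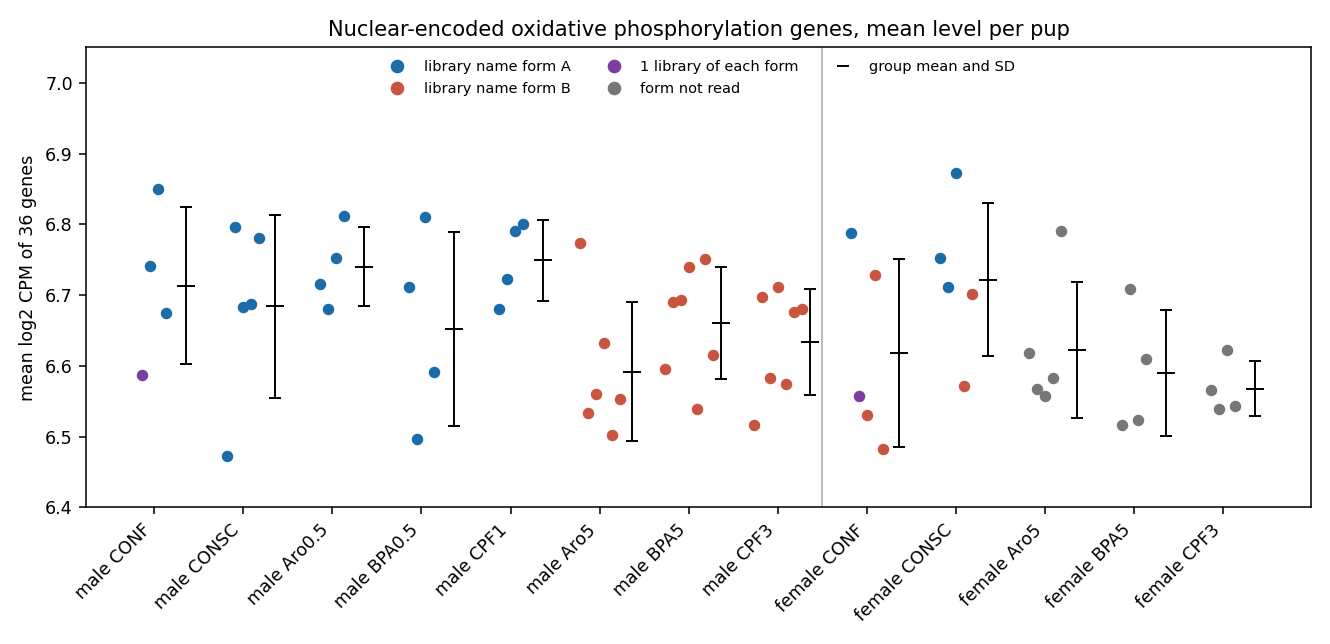
Mean log2 CPM of the 36 measured genes in each of the 64 pups (points, coloured by library name form), with the mean and SD of each group (black). Pups lie between 6.47 and 6.87, female CPF3 lies below male Aro0.5 and CPF1 without overlap, and the high-dose male means of 6.59 to 6.66 belong to groups made wholly of form B libraries.

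Set beside library form, the same mean was 6.69 ± 0.12 in 9 male control libraries of form A and 6.62 in the single male control library of form B, whose pup, N2-2y, had 6.53 in its own form A library. In treated males it was 6.71 ± 0.10 in 12 libraries of form A, all low-dose, and 6.63 ± 0.08 in 20 of form B, all high-dose. In female controls, unexposed but of both routes, it was 6.75 ± 0.10 in 5 libraries of form A and 6.58 ± 0.11 in 6 of form B. The 13 treated female libraries averaged 6.60 ± 0.08. Form B was lower than form A between untreated females, and higher within the single male pair.

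Most of the genes moved together from pup to pup within a group. The median SD of a gene within its group was 0.134 on the log2 scale, and 0.0948 once the mean of the other members was subtracted. The spread became smaller in 30 of 36 genes (83.3%), against 33.6% of 15607 other genes treated in the same way. Atp5o, the stalk subunit of ATP synthase also called OSCP, followed the others most closely, with an SD of 0.121 before and 0.051 after. Ndufs7, a core subunit of complex I that carries an iron-sulfur cluster, was the most variable, with an SD of 0.467 before and 0.435 after. Sdha varied little in itself, with an SD of 0.072 before and 0.099 after.

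The ranges of single genes over all 64 pups differed. Within complex I, Ndufa4, now also counted with complex IV, ranged from 192 to 301 CPM (median 247), and Ndufs7 from 6.67 to 51.7 CPM (median 26.6). In complex II, the membrane anchor Sdhc ranged from 113 to 197 CPM (median 147) and the iron-sulfur subunit Sdhb from 82.8 to 117 CPM (median 101). In complex III, the core protein Uqcrc2 ranged from 167 to 281 CPM (median 217), and Uqcrb, a small subunit at the ubiquinone site, from 41.2 to 85.0 CPM (median 59.0). The regulatory complex IV subunit Cox4i1 ranged from 210 to 411 CPM (median 313), the small subunit Cox8a from 61.0 to 169 CPM (median 96.4), and Atp5o from 141 to 220 CPM (median 174). Apart from Ndufs7, which spanned 2.94 log2 units, the genes named here spanned at most 1.47 log2 units. CPM is not corrected for transcript length, so these levels are not compared between genes.

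In male hippocampus at the high doses, the question was whether Aro5, BPA5 or CPF3 altered these genes against 9 male controls (CONF and CONSC combined). None of the 36 genes had an adjusted p under 0.05 in any of the 3 comparisons by edgeR's quasi-likelihood test, where 0.195%, 0.189% and 0.159% of 16393 genes did. At an unadjusted p under 0.05, 5 genes were lower in Aro5, 5 in BPA5 and 8 in CPF3, and none was higher. Over all genes tested the shares lower at that threshold were 4.48%, 5.03% and 7.26%, and the shares higher 7.29%, 4.07% and 5.33%. Fold changes were small: the log2 fold change was below 0 in 34 of 36 genes for Aro5, 24 for BPA5 and 25 for CPF3, with medians of -0.06, -0.05 and -0.07, where 50.5%, 47.8% and 49.2% of all genes were below 0. By complex, 19 of 20 genes of complex I, 4 of 4 of complex II, 5 of 5 of complex III and 5 of 6 of complex IV were below 0 in Aro5, as was Atp5o (-0.17 ± 0.068 SE, adjusted p = 0.313 by edgeR). The 3 comparisons share the same 9 controls, so their likeness is not independent, and p-values measure the spread between pups, some of which share a litter.

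Cox7c, a small structural subunit of complex IV, was among the lowest in each. It had 110 to 153 CPM (median 138) in the 9 male controls, 97.2 to 125 CPM (median 109) in 6 Aro5 pups, 108 to 119 CPM (median 114) in 7 BPA5 pups and 106 to 129 CPM (median 114) in 7 CPF3 pups. The lowest control, N2-2y at 110 CPM, is the one that also had a library of form B, and the other controls held 121 to 153 CPM. Its form A library held 106 CPM and its form B library 114 CPM. The ranges of controls and treated pups overlapped in all 3 comparisons. The log2 fold changes of Cox7c were -0.30 ± 0.071 (SE, adjusted p = 0.0816 by edgeR) in Aro5, -0.24 ± 0.068 (adjusted p = 0.225) in BPA5 and -0.20 ± 0.068 (adjusted p = 0.272) in CPF3.

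Sdhc, which anchors succinate dehydrogenase in the inner membrane, had 146 to 182 CPM (median 167) in male controls, 127 to 153 CPM (median 144) in Aro5, 136 to 164 CPM (median 148) in BPA5 and 131 to 154 CPM (median 147) in CPF3. Its upper values in treated pups reached into the lower control values. The log2 fold changes were -0.20 ± 0.057 (SE, adjusted p = 0.169 by edgeR), -0.15 ± 0.054 (adjusted p = 0.449) and -0.18 ± 0.054 (adjusted p = 0.208). Sdha, the catalytic subunit of the same complex, had log2 fold changes of -0.001 ± 0.045, 0.005 ± 0.043 and -0.02 ± 0.043. In complex I, Ndufs1, the large iron-sulfur subunit, was lowest in CPF3, at 81.8 to 107 CPM (median 94.8) against 102 to 130 CPM (median 107) in controls, giving -0.22 ± 0.088 on the log2 scale (adjusted p = 0.335). In complex III, Uqcrb had values of -0.19 ± 0.094, -0.20 ± 0.090 and -0.19 ± 0.090 in Aro5, BPA5 and CPF3.

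Ndufs7 had the highest log2 fold change in all 3 comparisons, and the widest spread. It had 14.9 to 24.3 CPM (median 18.5) in the 9 male controls. Aro5 pups held 9.02 and 9.39 CPM in the littermates 120-1y and 120-2y and 25.3 to 35.5 CPM in the other 4 pups. BPA5 pups ranged from 14.4 to 35.7 CPM (median 30.8) and CPF3 pups from 11.6 to 49.5 CPM (median 24.1). High-dose pups thus lay both above and below the controls. The log2 fold changes were 0.22 ± 0.27, 0.48 ± 0.26 and 0.41 ± 0.26 (SE), with adjusted p values of 0.809, 0.569 and 0.502 by edgeR. The sign turned in Aro5 within the time window described below (-0.143) and with library form as a term (-0.206), and in CPF3 with that term (-0.01).

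Apart from Ndufs7, the 95% intervals of the 35 other genes reached from -0.44 to 0.29 for Aro5, -0.38 to 0.47 for BPA5 and -0.39 to 0.45 for CPF3 on the log2 scale. In Aro5, DESeq2 called 2 genes lower, Cox7c (adjusted p = 0.00961) and Sdhc (adjusted p = 0.029), with 0.616% of all genes called, and it called 0 in BPA5 and 0 in CPF3. Without the Aro5 pup 108-1y edgeR called 2 genes of all 36 (1.07% of all genes), and without control N2-2y or 10-2y it called 1 (0.409% and 0.274%). When 3 control, 2 Aro5 and 2 BPA5 pups dissected outside the window of 10.30 to 13.20 h were left out, all 36 genes were below 0 in Aro5 with a median of -0.17, and 5 were called: Cox7c (-0.41), Cox6c (-0.31), Ndufb8 (-0.29), Sdhc (-0.28) and Atp5o (-0.28). In that fit 818 of 16484 genes (4.96%) were called, so the share was higher over all genes too. It held 4 Aro5 pups, among them the littermates 120-1y and 120-2y, with 4 CONF and 2 CONSC controls. The pups left out included 10-2y, the lowest control at a mean log2 CPM of 6.47, and 108-1y, the highest of Aro5 at 6.77. Library form also entered the fit as a term, with libraries fitted singly and no term for the pup. The term rested on 1 control library of form B, that of N2-2y, against 9 control libraries of form A. The medians of the 36 genes were then 0.01 in Aro5, 0.06 in BPA5 and 0.04 in CPF3. The 6 neocortical markers had median log2 fold changes of 0.64 in Aro5, 0.29 in BPA5 and 0.44 in CPF3, and 6 thalamic markers of -0.42, 0.04 and 0.08, with no marker called. Their part in these values was not tested.

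**Figure D2:**
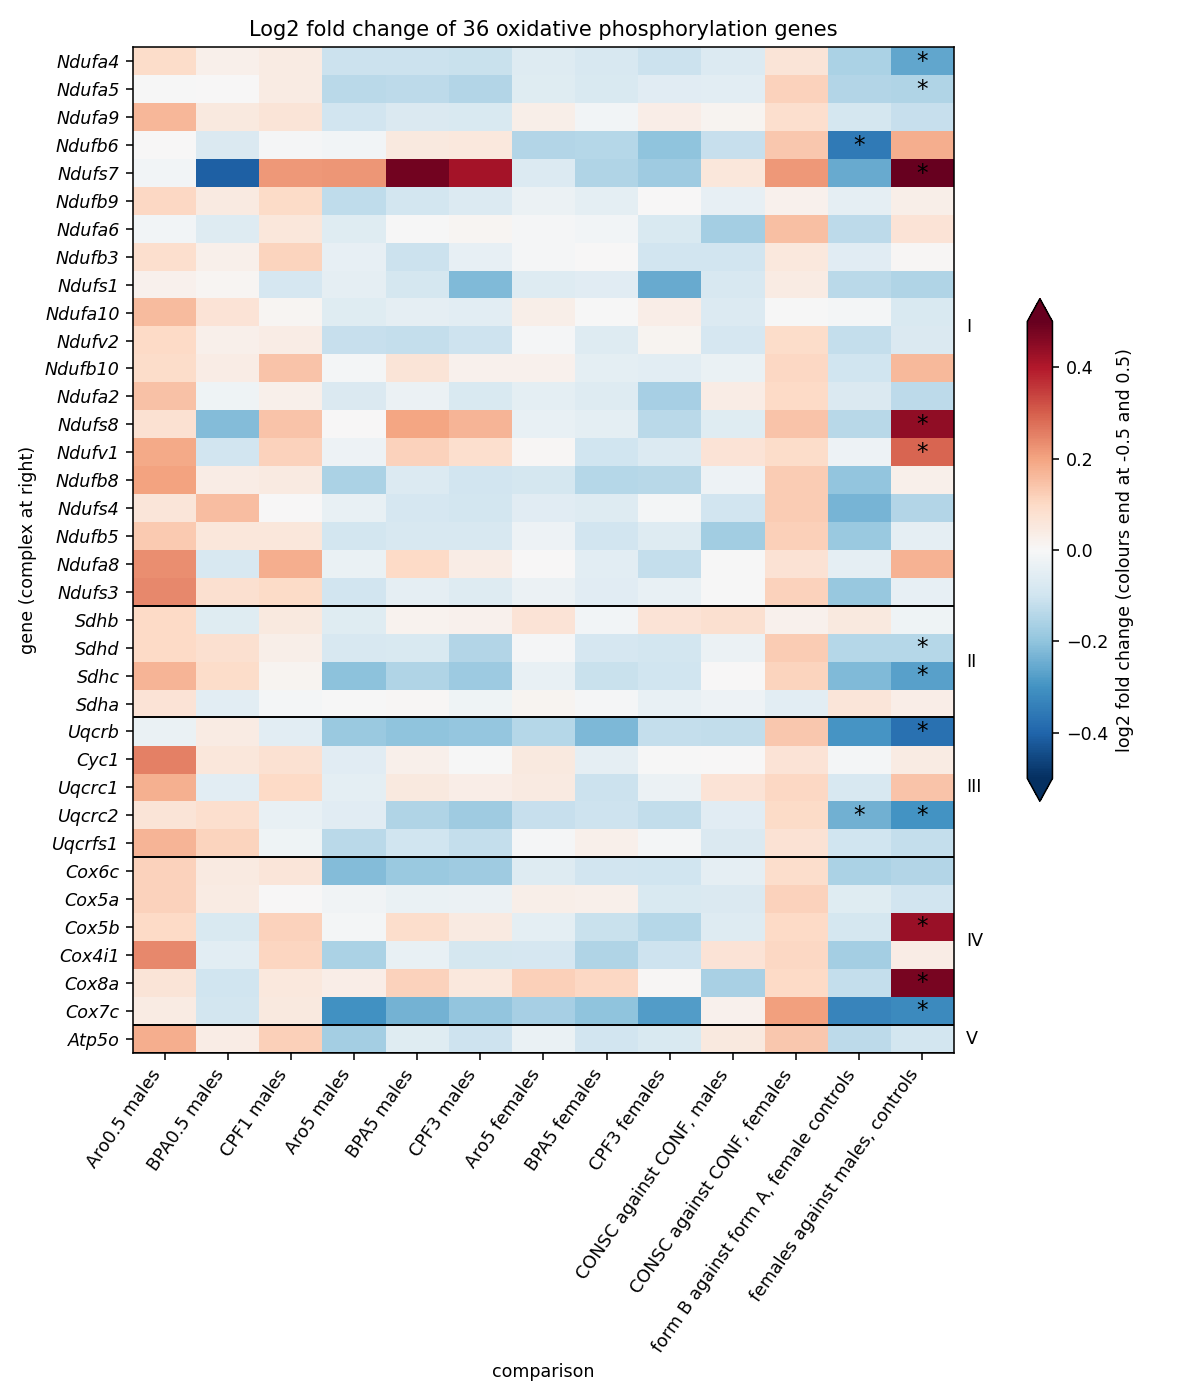
Log2 fold change (colour, ending at -0.5 and 0.5) of the 36 measured genes (lines, grouped by complex at right) in 13 comparisons (columns), where an asterisk marks an adjusted p under 0.05 by edgeR. No asterisk stands in any comparison of a treated group with controls, 2 stand in the comparison of library forms and 12 in that of sexes.

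In low-dose males no gene was called and most values were above 0. The 36 genes had median log2 fold changes of 0.10 in Aro0.5, 0.03 in BPA0.5 and 0.05 in CPF1, and 4, 14 and 6 of them were below 0, as were 49.5%, 50.4% and 46.4% of all genes. None had an adjusted p under 0.05 by edgeR or by DESeq2, where edgeR called 0.124%, 0.0434% and 0.0% of 16139 genes. At an unadjusted p under 0.05, 10 genes were higher in Aro0.5, 1 in BPA0.5 and none in CPF1, and none was lower. Over all genes 9.55%, 3.09% and 0.991% were higher and 8.97%, 5.48% and 1.0% lower at that threshold. Within the time window the Aro0.5 median was 0.06 with 2 genes higher at an unadjusted p under 0.05, and the CPF1 median was -0.004. With controls of the same route only, the BPA0.5 median was -0.01. These 3 comparisons use the same 9 controls as the high-dose ones, and their libraries, like 9 of 10 control libraries, are of form A.

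In Aro0.5, the largest value was that of Cyc1, cytochrome c1 of complex III. The 4 pups held 166, 169, 186 and 197 CPM, against 138 to 179 CPM (median 158) in the 9 controls, with an overlap of the lower 2. Its log2 fold change was 0.25 ± 0.087 (SE, adjusted p = 0.163 by edgeR). Ndufs3, a core subunit of complex I, had 75.6, 76.2, 83.4 and 78.3 CPM in Aro0.5 and a log2 change of 0.24 ± 0.073 (adjusted p = 0.133). Uqcrb was lowest, at 65.3, 62.9, 68.9 and 63.9 CPM against 58.5 to 85.0 CPM (median 68.0) in controls, a value of -0.04 ± 0.085. In Aro0.5 pups 8 of the 13 mitochondrially encoded genes were higher (adjusted p under 0.05), the thalamic markers had a median of 0.56, the neocortical markers one of -0.33 and the choroid plexus markers one of -0.55. Their part was not tested.

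In BPA0.5, Ndufs7 again stood at an extreme, here the lowest. The 4 pups held 12.7, 6.67, 20.5 and 16.5 CPM, on both sides of the lowest control (14.9 CPM), a log2 change of -0.41 ± 0.20 (SE, adjusted p = 0.583 by edgeR). Ndufs4, an accessory subunit of complex I, had 146 and 150 CPM in 2 pups and 128 and 127 CPM in the others, against 114 to 143 CPM (median 126) in controls. Its log2 fold change was 0.15 ± 0.061 (adjusted p = 0.496). In CPF1, Ndufs7 held 19.4, 21.6, 28.0 and 20.3 CPM (log2 fold change 0.21 ± 0.19) and Ndufs1 held 99.7, 101, 102 and 114 CPM (-0.09 ± 0.078), both with an adjusted p of 0.997. The ranges of these groups overlapped those of the controls, with single pups outside them. The 95% intervals of the 35 genes other than Ndufs7 reached from -0.20 to 0.47 in Aro0.5, -0.47 to 0.27 in BPA0.5 and -0.24 to 0.40 in CPF1.

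In female hippocampus, the high doses likewise left no gene with an adjusted p under 0.05 by edgeR or DESeq2, and edgeR called 0.0% of 16992 genes in each of the 3 comparisons. The log2 fold change was below 0 in 25 of 36 genes for Aro5, 32 for BPA5 and 30 for CPF3 (51.1%, 50.5% and 53.2% of all genes), with medians of -0.03, -0.07 and -0.08. At an unadjusted p under 0.05, 0, 1 and 2 genes were lower and none was higher, where 1.69%, 2.1% and 3.8% of all genes were lower and 1.54%, 1.99% and 4.99% higher. The 3 comparisons share 10 female controls. With controls of the same route only, the medians were 0.03 in Aro5, -0.02 in BPA5 and -0.14 in CPF3, with 14, 27 and 34 genes below 0, and 11 genes were lower in CPF3 at an unadjusted p under 0.05.

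Cox7c was lowest in Aro5 and CPF3 females. Female controls held 77.9 to 133 CPM (median 105), Aro5 females 92.2, 93.2, 86.9, 84.4 and 112 CPM, and CPF3 females 92.3, 91.5, 90.7 and 71.1 CPM. All treated values except the 71.1 CPM of pup 45-6x lay within the control range. The log2 fold changes were -0.17 ± 0.098 (SE, adjusted p = 0.999 by edgeR) in Aro5 and -0.28 ± 0.11 (adjusted p = 0.479) in CPF3. In BPA5 the lowest was Uqcrb, at 41.6, 50.03, 42.6 and 44.4 CPM against 41.2 to 67.6 CPM (median 52.6), for a log2 change of -0.22 ± 0.092 (adjusted p = 0.925). Ndufs1 in CPF3 females had 90.0, 75.9, 64.2 and 91.6 CPM against 82.0 to 124 CPM (median 94.5), for a log2 change of -0.25 ± 0.092 (adjusted p = 0.465).

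Cox8a was highest in Aro5 and BPA5 females. It held 110, 107, 116, 131 and 169 CPM in Aro5 and 109, 150, 116 and 128 CPM in BPA5, against 100 to 138 CPM (median 121) in controls, so that 1 pup in each group exceeded every control. Its log2 fold changes were 0.12 ± 0.094 and 0.10 ± 0.10 (SE). In CPF3 the highest was Sdhb, at 97.6, 103, 106 and 98.0 CPM against 93.0 to 106 CPM (median 97.2), with 0.07 ± 0.050. Against the 5 control libraries of form A alone, the medians of the 36 genes were -0.08, -0.12 and -0.12, and Cox7c was called in CPF3 (-0.43, adjusted p = 0.0446 by edgeR, with 0.649% of all genes called). Against the 6 of form B alone they were 0.04, 0.002 and 0.005, with none called. The choice between these control libraries thus moved the median by more than the difference from all controls.

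CONF and CONSC pups were compared in each sex because they were combined above. In males 25 of 36 genes were below 0 in CONSC against CONF, with a median log2 fold change of -0.04, and in females 2 were, with a median of 0.10, where 49.2% and 48.4% of all genes were below 0. No member had an adjusted p under 0.05 in either sex by edgeR or DESeq2, where edgeR called 0.013% of 15387 genes in males and 0.0% of 16618 in females. At an unadjusted p under 0.05 there was none in males (0.442% of all genes higher and 0.546% lower) and 1 in females, Ndufs7 (1.5% higher and 2.79% lower). Female CONF pups held 39.7, 34.4, 30.4, 39.2 and 28.6 CPM of Ndufs7 and CONSC pups 43.3, 38.5, 44.5, 35.3 and 38.9 CPM, with overlap. Its log2 fold change was 0.21 ± 0.098 (SE, adjusted p = 0.85 by edgeR). By name form, female CONF had 2 A and 4 B libraries, and CONSC 3 A and 2 B, and the neocortical markers had a median of -0.41.

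In males the lowest gene in CONSC was Ndufb5, an accessory subunit of complex I. CONF pups held 84.4, 106, 105 and 87.1 CPM and CONSC pups 69.3, 90.5, 84.8, 89.5 and 91.4 CPM, for a log2 change of -0.17 ± 0.10. The highest was Sdhb, with 93.7, 95.9, 111 and 95.6 CPM in CONF and 91.0, 114, 106, 106 and 109 CPM in CONSC (0.08 ± 0.081). In females the lowest was Sdha, with 142, 129, 134, 135 and 126 CPM in CONF and 131, 129, 123, 134 and 128 CPM in CONSC (-0.05 ± 0.056). None of the 3 separated the control groups.

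Library form was compared within the female controls, 6 libraries of form B against 5 of form A. The log2 difference was below 0 in 34 of the 36 genes, with a median of -0.13, where 53.1% of 16577 genes were below 0. By edgeR 2 genes were lower, Uqcrc2 (-0.24 ± 0.052 SE, adjusted p = 0.0392) and Ndufb6 (-0.36 ± 0.077, adjusted p = 0.0399), where 1.43% of all genes were called, 0.549% higher and 0.881% lower. At an unadjusted p under 0.05, 15 genes were lower (10.0% of all genes) and none was higher (8.63%). All 20 genes of complex I, all 5 of complex III, all 6 of complex IV and Atp5o were below 0, and only Sdha (0.06 ± 0.051) and Sdhb (0.05 ± 0.053) of complex II were above.

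Ndufb6, an accessory subunit in the membrane arm of complex I, had 59.7, 50.6, 53.7, 51.6 and 60.0 CPM in the form A libraries and 36.8 to 47.1 CPM (median 41.3) in those of form B. Uqcrc2 had 221, 198, 220, 218 and 207 CPM in form A and 167 to 187 CPM (median 173) in form B. Ndufs4 had 119, 108, 122, 125 and 133 CPM against 97.3 to 107 CPM (median 100), with an adjusted p of 0.0602 by edgeR. The 2 forms did not overlap in any of these 3 genes, as was so for 3.05% of all genes in this direction. No member was higher without overlap (1.15% of all genes).

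The calls by form were unstable. DESeq2 called 6 genes (5.18% of all genes), and 5 were called without both libraries of N4-3x (3.6% of all genes). When single libraries were left out, edgeR called 0 without the form A library of N2-4x, 11-3x, 13-8x or 9-1x or the form B library of N1-8x, N4-3x, N8-1x or 8-2x, 1 without 6-7x and 6 without the form A library of N4-3x. The median over the members stayed between -0.18 and -0.08 in all of these. Neocortical markers had a median of 0.64 and hippocampal markers of 0.36 in form B against form A, the red-cell marker Hbb (-0.83, adjusted p = 0.014 by edgeR) and the ribosomal protein gene Rplp1 (-0.69, adjusted p = 0.00523) were lower, and their part in these values was not tested.

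The pups with a library of each form gave a comparison within 1 animal. In female N4-3x, 33 of 36 genes were lower in the form B library, with a median log2 difference of -0.14, where all 14531 genes with at least 20 counts had a median of -0.03 (57.7% below 0). Ndufb6 had 50.6 CPM in form A and 36.8 CPM in form B (-0.46), Ndufs7 had 37.7 and 28.6 CPM (-0.40) and Cox7c 105 and 87.8 CPM (-0.26), while Sdha had 125 and 137 CPM (0.13). In male N2-2y, 15 of 36 genes were lower, with a median of 0.03 against -0.03 over 14157 genes. Here Ndufs7 had 10.3 CPM in form A and 26.1 CPM in form B (1.34), Ndufs8 differed by 0.81 and Ndufv1 by 0.68, and Uqcrb had 76.6 and 60.1 CPM (-0.35). The pairs thus differed in opposite directions for Ndufs7, the labels give 2 dissection times for the libraries of N4-3x (12.09 and 11.55 h), and with 1 pup in each pair no test was made.

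**Figure D3:**
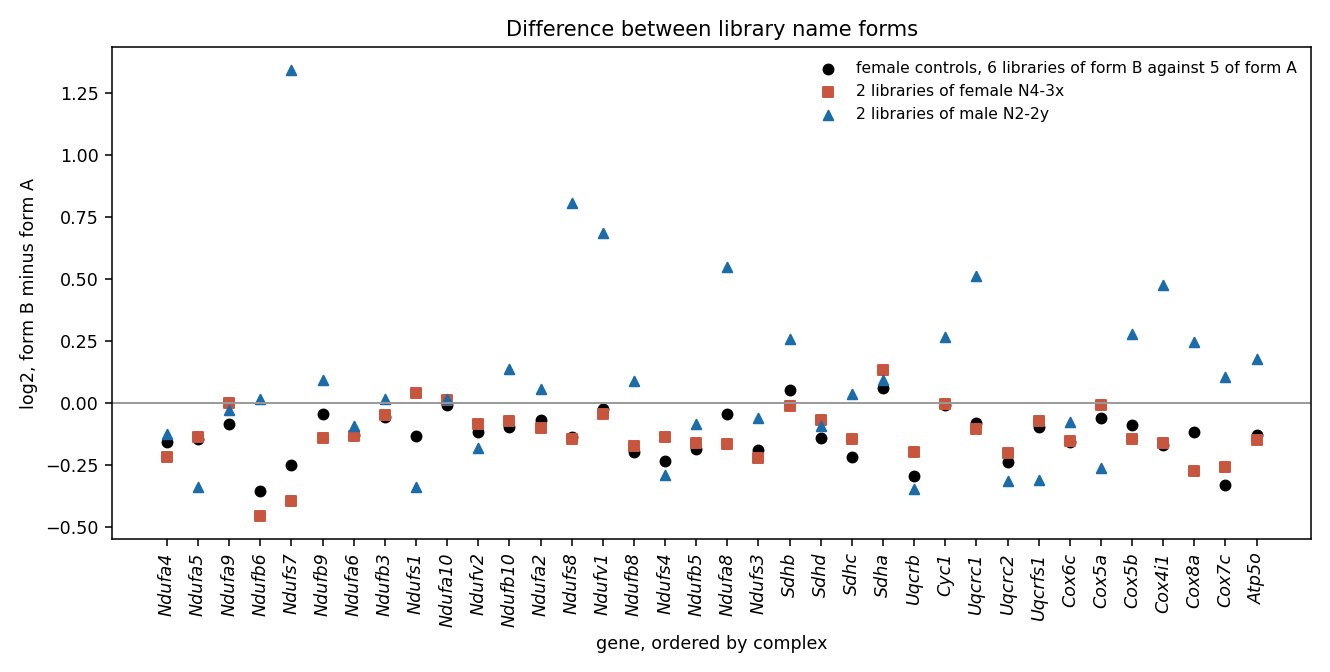
Log2 difference of form B minus form A for each of the 36 genes: black circles are edgeR estimates over 11 female control libraries, red squares the 2 libraries of female N4-3x and blue triangles the 2 libraries of male N2-2y. Circles and squares lie mostly below 0, with medians of -0.13 and -0.14, and the triangle of Ndufs7 stands highest at 1.34.

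The clearest differences lay between control females (10 pups) and control males (9 pups). By edgeR 12 of 36 genes had an adjusted p under 0.05, 5 higher and 7 lower in females, where 30.9% of 15763 genes were called (17.8% higher and 13.1% lower), so the share of members was close to that over all genes. The median log2 fold change was -0.04 and 20 of the 36 genes were below 0, as were 53.1% of all genes. Higher in females were Ndufs7, Ndufs8 and Ndufv1 of complex I and Cox5b and Cox8a of complex IV. Lower were Ndufa4 and Ndufa5 of complex I, Sdhc and Sdhd of complex II, Uqcrc2 and Uqcrb of complex III and Cox7c of complex IV.

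Ndufs7 had 28.6 to 44.5 CPM (median 38.7) in females and 14.9 to 24.3 CPM (median 18.5) in males, without overlap, as was so for 4.55% of all genes in this direction. Its log2 fold change of 0.98 ± 0.093 (SE, adjusted p = 3.98e-08 by edgeR) was the largest among the 36. Ndufs8, which carries 2 iron-sulfur clusters next to Ndufs7 in complex I, had 42.0 to 57.3 CPM (median 50.3) in females and 30.5 to 46.1 CPM (median 37.6) in males, a value of 0.45 ± 0.080 (adjusted p = 0.000177). Ndufv1, the NADH-binding flavoprotein, had 109 to 136 CPM (median 128) and 90.4 to 121 CPM (median 105), a value of 0.29 ± 0.058 (adjusted p = 0.000506). All 3 are core subunits of complex I, whereas the core subunits Ndufs1, Ndufs3 and Ndufv2, at -0.15 ± 0.067, -0.04 ± 0.063 and -0.07 ± 0.062, did not pass the test.

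In complex IV, Cox5b, a nuclear subunit that binds zinc, had 131 to 178 CPM (median 153) in females and 90.7 to 140 CPM (median 118) in males, for a log2 change of 0.43 ± 0.070 (adjusted p = 4.99e-05 by edgeR). Cox8a had 100 to 138 CPM (median 121) and 62.9 to 104 CPM (median 86.7), with 0.47 ± 0.082 (adjusted p = 0.000106). Cox7c went the other way, at 77.9 to 133 CPM (median 105) in females and 110 to 153 CPM (median 138) in males, with -0.32 ± 0.084 (adjusted p = 0.00543). Subunits of a single complex thus differed between the sexes in both directions.

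Among the genes lower in females, Uqcrc2 had 167 to 221 CPM (median 188) against 227 to 278 CPM (median 240) in males, without overlap (1.23% of all genes in this direction), and a log2 change of -0.30 ± 0.056 (adjusted p = 0.000247 by edgeR). Uqcrb had 41.2 to 67.6 CPM (median 52.6) against 58.5 to 85.0 CPM (median 68.0), with -0.37 ± 0.081 (adjusted p = 0.00122). Reads that Uqcrb shares with the near-identical entry Uqcrb-ps1, which held group means of 20.5 to 26.9 CPM, could have been split between them, so its values are uncertain. Sdhc had 113 to 159 CPM (median 131) against 146 to 182 CPM (median 167), with -0.27 ± 0.059 (adjusted p = 0.00121), and Ndufa4 had 194 to 256 CPM (median 226) against 232 to 298 CPM (median 277), with -0.26 ± 0.053 (adjusted p = 0.000683). Sdhd, the other membrane anchor of complex II, and Ndufa5 had smaller values of -0.14 ± 0.051 (adjusted p = 0.0363) and -0.15 ± 0.057 (adjusted p = 0.04995), and neither was called with litter as a block.

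Library name forms differed between the sexes as well, since 9 of 10 male control libraries but 5 of 11 female ones were of form A. The form is marked differently in the names of each sex, so form A of males and form A of females need not be the same set. Among form A libraries alone, 7 genes were called (11.7% of all genes): Ndufs7 (1.16), Ndufs8 (0.53), Cox8a (0.53), Cox5b (0.48), Ndufb6 (0.34), Ndufv1 (0.33) and Uqcrc2 (-0.20). A fit of the 7 litters with a control pup of each sex, a set chosen after the data were seen, had no litter term. It called 14 members (26.5% of all genes) and put Ndufs7 at 0.98. With litter as a block 10 were called (27.1%). Hippocampal markers had a median of 0.68 and neocortical markers of 0.37 in females against males and 2 of 5 hippocampal, 1 of 6 neocortical and 2 of 6 neuronal markers were higher (adjusted p under 0.05). Of 6 oligodendrocyte markers 3 were higher, led by Sox10 (0.58), and 1 lower. Of 6 astrocyte markers 2 were lower. Of the endothelial markers only Cldn5 (0.52) was called, and of the red-cell markers only Hba1 (0.68), both higher. Of 6 markers of dividing cells 1 was higher and 1 lower. Their part, and that of sequencing sets that may follow sex, was not tested.

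**Figure D4:**
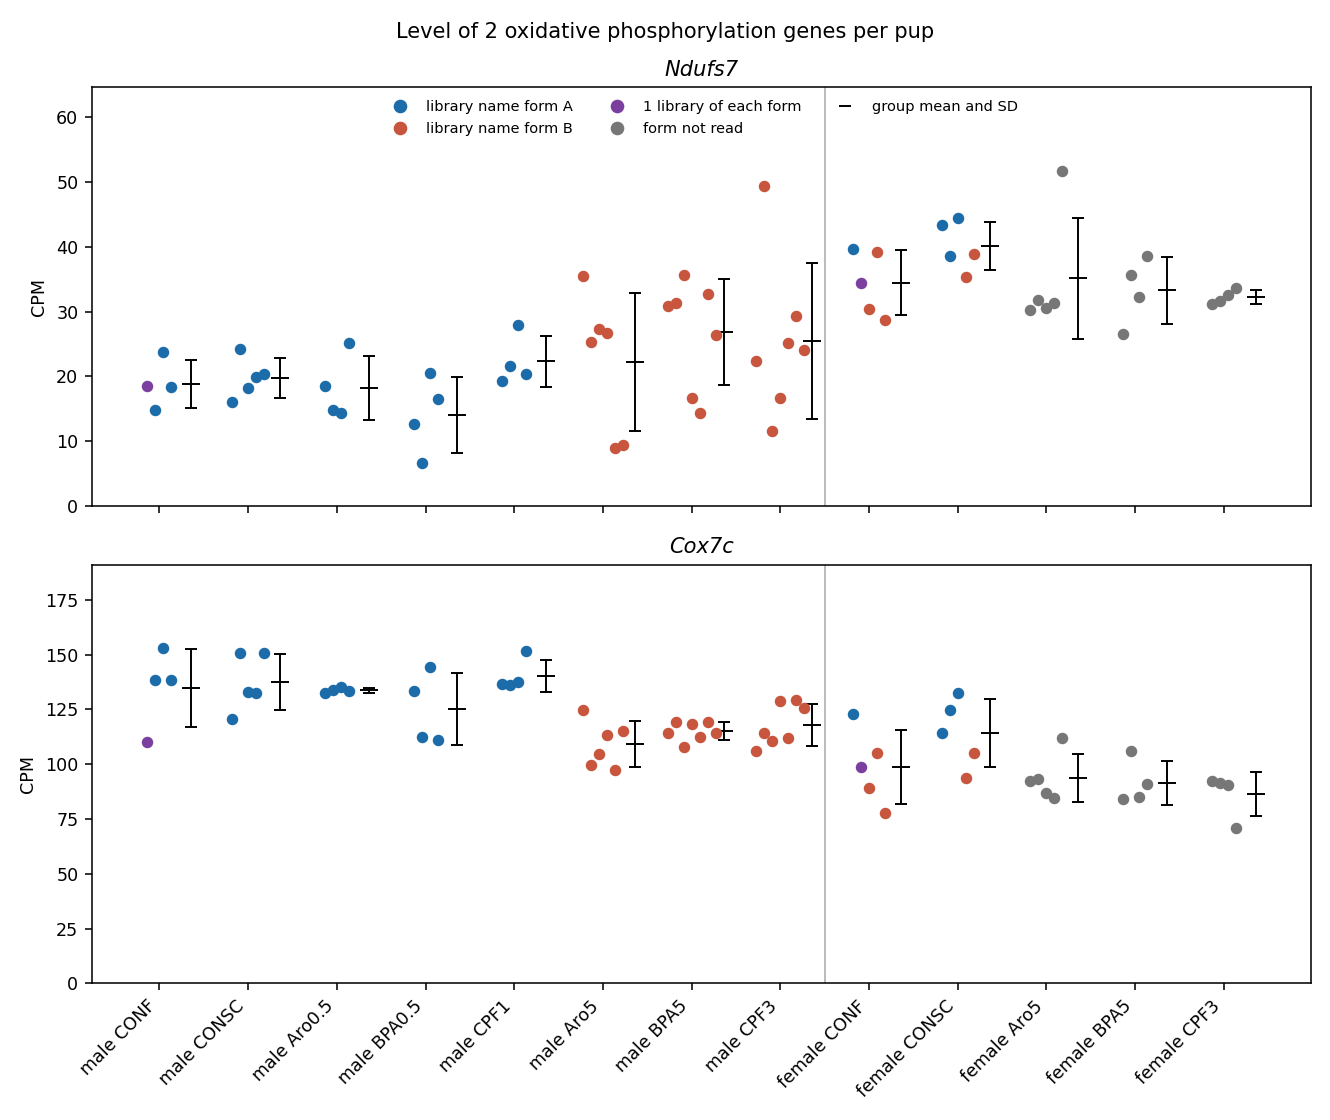
CPM of Ndufs7 (top) and Cox7c (bottom) in each of the 64 pups (points, coloured by library name form), with group mean and SD (black). Control females lie at 28.6 to 44.5 CPM of Ndufs7, above all control males at 14.9 to 24.3 CPM, while high-dose males spread from 9.02 to 49.5 CPM.

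Whether the treatments acted differently in the sexes was tested directly as the male minus the female log2 fold change in a fit of 52 control and high-dose pups. No member had an adjusted p under 0.05 by edgeR or DESeq2, where edgeR called 0.0984%, 0.0405% and 0.0463% of 17282 genes for Aro5, BPA5 and CPF3. The medians were -0.06, 0.01 and 0.02. Within the time window the Aro5 median was -0.15, with 4 genes lower at an unadjusted p under 0.05 and 3.49% of all genes called. At an unadjusted p under 0.05 there was 1 gene, Ndufb6 in CPF3 (0.26 ± 0.13), where 3.07% of all genes were higher and 2.53% lower. Ndufs7 had the highest difference in each, at 0.30 ± 0.32, 0.63 ± 0.33 and 0.60 ± 0.33 (SE, adjusted p = 0.878, 1.0 and 0.872 by edgeR). The lowest were Sdhc in Aro5 (-0.16 ± 0.085), the Rieske iron-sulfur protein Uqcrfs1 in BPA5 (-0.13 ± 0.10) and the complex I core subunit Ndufv2 in CPF3 (-0.11 ± 0.091). The 95% intervals of the other 35 genes reached from -0.37 to 0.40, -0.34 to 0.61 and -0.31 to 0.68.

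Other genes of the pathway were read from fixed lists. None of 15 further complex I subunits, 5 of complex III with cytochrome c, 8 of complex IV and 15 of complex V passed the test in any of the 9 comparisons of a treated group with controls. The same held for 36 assembly factors, 14 transcriptional regulators, 11 citric acid cycle enzymes, 10 proteins of the mitochondrial membrane and import, and 26 cytosolic ribosomal proteins. Of the 13 mitochondrially encoded genes, 1 passed in high-dose males: ND6, a subunit of complex I, was lower in Aro5 (-1.06 ± 0.12 SE, adjusted p = 2.28e-06 by edgeR), BPA5 (-0.92 ± 0.11, adjusted p = 9.65e-06) and CPF3 (-0.88 ± 0.11, adjusted p = 2.41e-05). ND6 was also lower in form B than in form A libraries of female controls (-0.92 ± 0.094, adjusted p = 0.000354 by edgeR), which were all unexposed. It was lower in control females than control males too (-1.03 ± 0.145, adjusted p = 8.29e-06 by edgeR). In that comparison ATP8 (0.36), ATP6 (0.16) and ND5 (0.22) were called higher. The part of library form in the ND6 values was not tested. ND6 lies on the opposite strand to most mitochondrial genes, and whether strand was used in counting is not stated. In low-dose males 8 of the 13 were higher in Aro0.5 and 3 in BPA0.5, with medians of 0.43 and 0.39, and none passed in CPF1.

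By form, ND4 was higher (0.56 ± 0.11) and the nuclear genes Ndufb1 (-0.63 ± 0.089) and Ndufc1 (-0.43 ± 0.077) of complex I and Uqcr10 of complex III (-0.57 ± 0.12) were lower. Between control females and males, 6 further complex I subunits were higher and 2 lower of 15, led by Ndufb4 (0.66 ± 0.075), where 17.8% of all genes were higher and 13.1% lower. Of the further complex III genes Uqcrq (0.71 ± 0.084) and Uqcr11 (0.33 ± 0.081) were higher. Of those of complex IV Cox6a1 (0.39 ± 0.063) was higher, and Cox6b1 (-0.805 ± 0.111) and Cox7b (-0.20 ± 0.071) were lower. In complex V 4 were higher and 6 lower of 15, with Atp5d, the delta subunit of the rotor, at 0.68 ± 0.077, and of 36 assembly factors 6 were higher and 13 lower. Among regulators, the nuclear receptor Esrra (0.89 ± 0.079), the mitochondrial RNA polymerase Polrmt (0.79 ± 0.083) and Yy1 (0.36 ± 0.069) were higher, and 4 of 14 were higher and 3 lower in all. Isoforms known from muscle or lung had low levels, with group means of 2.5 to 3.5 CPM for Cox4i2, 0.38 to 1.71 CPM for Cox6a2 and at most 0.064 CPM for Cox8b. Cox4i2 and Cox6a2 did not pass the test in any of the comparisons, and Cox8b was too low to be tested.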

How the data were processed

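The authors deposited raw read counts per gene for each library, made from stranded mRNA libraries. Per the study's methods, STAR aligned the reads to Rnor_6.0 and featureCounts (Rsubread) counted them per gene. The submitters' processing notes also name kallisto. Versions, the strand setting and the part of kallisto are not given in the sources used here. The deposited counts were used whole, and the 2 libraries of a pup were summed. Members were matched by gene name, taking the row with most counts. Members and lists were chosen with earlier results of these data known.

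Levels are log2((count + 0.5)/(total + 1) × 1000000), and gene values are CPM. Comparisons used the quasi-likelihood test of edgeR 4.0.16 (R 4.3.3) with TMM scaling and filterByExpr, fitted to all genes, with Benjamini-Hochberg adjustment over all genes tested and a threshold of 0.05. High-dose males (29 pups), low-dose males (21 pups) and females (23 pups) were fitted separately, each with the controls of both routes. Routes, sexes and library forms were fitted within controls, and a fit of 52 pups gave the interaction of sex and treatment. Intervals are the log2 fold change ± 1.96 SE. Values per pup are given for the members with the highest and lowest mean level of their complex, those with the highest and lowest fold change in a comparison and those with an adjusted p under 0.05, and other genes are named from lists by the adjusted p or as tissue-specific isoforms. Ndufs3 and the further comparisons of these members were added after their values were seen. Alternatives were DESeq2 1.42.0 and its size factors, no filter, limma 3.58.1 with litter as a block, the time window, library form and each pup left out. The scripts were tested on simulated data. Total counts of 10644138 to 86206550 per library put at least 71 counts on each measured member in each pup. The fit of the 7 litters with a control pup of each sex had no litter term, so sisters and brothers were not paired. Promoter windows are RefSeq, GRCr8. Coordinates are of that build and not of the build of the counts.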

Additional observations from a re-analysis of the deposited data

Results flagged for a closer look

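Within the 13 groups of 4 to 7 pups, 364 sets of values (the mean of the 36 genes, the complex means and the genes named above) were searched for a pup that stood apart from the rest of its group by Dixon's criterion, and 31 did. Chance alone is set to mark about 1 in 20 such sets. The sets overlap and most of the genes move together, so their flags are not independent. Whether 31 exceeds chance was therefore not tested.

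Female Aro5 pup 120-3x stood apart in 9 of them. Its mean log2 CPM over the 36 genes was 6.79, against 6.56 to 6.62 in the other 4 pups, and its complex IV mean was 7.49, against 7.14 to 7.20. It held 52.5 CPM of Ndufb6 (others 39.4 to 42.0), 51.7 of Ndufs7 (30.3 to 31.8), 58.6 of Ndufs8 (43.8 to 46.3) and 153 of Ndufv1 (114 to 123). It also held 212 CPM of Cyc1 (139 to 156), 368 of Cox4i1 (275 to 295) and 186 of Atp5o (152 to 162). All 9 values were the highest of the group.

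In female CPF3, pup 43-3x was highest, with a complex I mean of 6.27 (others 6.21) and 170 CPM of Atp5o (152 to 154). Low values stood in pup 35-3x for Ndufv1 (105 CPM, others 121 to 124), in 38-5x for Uqcrfs1 (104 CPM, others 124 to 126) and in 45-6x for Cox7c (71.1 CPM, others 90.7 to 92.3). Female BPA5 pup 81-6x held 124 CPM of Ndufv1 (113 to 114) and 103 of Sdhb (93.7 to 94.5). Female CONF pup N2-4x held 124 CPM of Ndufs1 (82.0 to 93.9).

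Among male controls, CONSC pup 10-2y was low in Ndufa4 at 232 CPM (274 to 286) and 8-4y high in Ndufs1 at 126 CPM (102 to 106). CONF pup N3-4y was high in Ndufs1 at 130 CPM (107 to 110) and in Ndufs4 at 143 CPM (126 to 127), and N4-7y in Sdhb at 111 CPM (93.7 to 95.9). Among low-dose males, Aro0.5 pup 98-8y had a complex IV mean of 7.42 (7.26 to 7.28), and 106-3y had 188 CPM of Atp5o (204 to 206). BPA0.5 pup 73-4y had 96.6 CPM of Ndufs1 (114 to 115) and 193 of Sdhc (164 to 167), and CPF1 pup 63-5y had 151 CPM of Cox7c (136 to 137).

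Among high-dose males, BPA5 pup 86-9y held 137 CPM of Ndufs4 (110 to 119). Aro5 pup 108-1y, dissected outside the time window, held 147 CPM of Cox5b (97.5 to 114) and 107 of Cox8a (79.2 to 89.4). CPF3 pup 36-3y held 148 CPM of Cox5b (106 to 123).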

How the results depend on the processing

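The number of members called kept within 1.5 times its value in 105 of 112 settings and in 236 of 249 fits without 1 pup or library. In Aro5 males, 0 became 2 with DESeq2, 5 within the time window and 0 to 2 without single pups. In CPF3 females it became 1 against control libraries of form A. Between library forms, 2 became 1 without the filter on low counts, 6 with DESeq2, 5 without N4-3x and 0 to 6 without single libraries. Between sexes, 12 became 7 in form A libraries alone. Litter as a replicate block in limma gave 10, with Sdhd and Ndufa5 lost. That fit used another test and a single correlation for pups of a litter, and only 7 of 12 control litters held both sexes. The block gave 0 for the interactions.

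Directions reversed for Ndufs7 in Aro5 males within the time window (-0.143) and with form as a covariate (-0.206), in CPF3 males with that covariate (-0.01) and in the Aro5 interaction within the window (-0.08), and for Cox7c in BPA5 males with the covariate (0.027) and in Aro5 females against form B controls (0.009). The cause was not tested. Fold changes were followed in this way for selected genes only, and the others among these kept their direction. Over all 36 genes, with form as a covariate 14, 5 and 12 were below 0 in males of Aro5, BPA5 and CPF3. Against form B controls 4 were below 0 in Aro5 females. These counts were lower than in the main fits, so further single genes changed direction. The median over the members is near 0 and also changed sign: in males of Aro5, BPA5 and CPF3 it became 0.01, 0.06 and 0.04 with form as a covariate, against form B controls 0.04, 0.002 and 0.005 in females, with same-route controls 0.03 in Aro5 females and -0.01 in BPA0.5 males, within the window -0.004 in CPF1 males and -0.03 in the BPA5 interaction, and without single pups down to -0.03 in BPA0.5 males and up to 0.007 between male routes. Within the window it was -0.17 in Aro5 males. Mean levels moved in 12 of 52 settings, 10 of them with mitochondrial genes left out of the total.

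Ndufs7 had the lowest count of the members, 71 in the lowest pup, and also the largest SD within groups, 0.467. In N2-2y it had 169 counts in the form A library and 463 in the form B library, which had similar totals. The median SE of the members was 0.062 to 0.105 on the log2 scale over the comparisons, so differences smaller than that lie within the error. Library form and high dose cannot be told apart in males.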

Other observations

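Ndufs7 in litter 120 of Aro5 was at 9.02 and 9.39 CPM in the brothers 120-1y and 120-2y, the lowest of the Aro5 males. Their sister 120-3x held 51.7 CPM, the highest of all 64 pups. Control females held 28.6 to 44.5 CPM and control males 14.9 to 24.3 CPM. The brothers had form B libraries, and the form of the sister's was not read. In male N2-2y the form A library held 10.3 CPM and the form B library 26.1 CPM. The part of sex and of library set was not tested.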
